A study of Mus musculus with 20 samples.

Results

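Natural antibodies of BALB/c mice were examined for binding to 8 printed glycans that end in an α-linked galactose outside the Galα1-3Gal and Galα1-4 families. They were chosen by structure: compounds numbered below 900 that begin with Galα1-2, Galα1-6, Galα1-3GlcNAc or Galα1-3GalNAc and carry no α1-2 fucose branch, sulfate or sialic acid, which gave 8 of the 419 compounds on the array, of which 406 are glycans. The mice were untreated, 10 weeks old and inbred, from a commercial breeder, and the serum of each was tested on 1 array, where IgM and IgG were detected together with the dye Cy5. Signals are given in relative fluorescence units (RFU), the median of 6 spots of a compound, and 4000 RFU or more is called binding, the threshold of the study. Of 13 female and 7 male arrays, those of the females 7 and 8 were identical in all 2664 spots. They were counted once, as female 7, which left 19 mice, 12 females and 7 males. Which of these 2 females the serum came from is not known. Mice are named by sex and by number in the order of the deposited samples.

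Antibodies to terminal galactose in α linkage differ between species, because mice make Galα1-3Gal on their own cells and humans do not. The glycans here are less familiar relatives of that epitope. Melibiose is Galα1-6Glc, the disaccharide that remains when fructose is removed from the plant sugar raffinose, and a galactose in α1-6 linkage also decorates plant galactomannans. Galα1-3GalNAc is the α-anomer of the Thomsen-Friedenreich disaccharide Galβ1-3GalNAc, the mucin core that is exposed on many tumours. Each glycan was attached to the slide through an amine spacer: sp3 is an alkoxy chain bound through oxygen, -O(CH2)3NH2 in the deposited table, and sp4 is a glycine amide bound through nitrogen, -NHCOCH2NH2.

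The members were 3 melibiose compounds and 5 others. The melibioses were Galα1-6Glcβ-sp3 (808), its α-anomer at glucose Galα1-6Glcα-sp3 (806), and the same disaccharide as 808 on the other spacer, Galα1-6Glcβ-sp4 (083). The others were Galα1-2Galβ-sp3 (075), Galα1-3GalNAcβ-sp3 (077, Tαβ), Galα1-3GalNAcα-sp3 (078, Tαα), Galα1-3GalNAc(fur)β-sp3 (140), in which the GalNAc is a furanose, that is a ring of the smaller form, and Galα1-3GlcNAcβ-sp3 (080).

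The arrays differed in overall brightness. They fell into 2 sets by the ratio of 2 non-glycan compounds (902 to 900). The first set, 9 arrays with ratios from 0.63 to 1.86, held 7 females with 2 males, and the second, 10 arrays with ratios from 0.01 to 0.06, held 5 of each sex. The median signal of all compounds was 126 to 412 RFU on the arrays of the first set and 603 to 1504 RFU on those of the second. No label names the split, and results are therefore also given within the sets. The spots of printing buffer, which hold no glycan, had medians of 94 to 2044 RFU, and 0 to 33.3% of the buffer spots of an array were themselves at or above 4000 RFU.

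Binding was seen only to the melibioses among these glycans. All 3 melibioses reached 4000 RFU in at least 1 mouse, and the other 5 reached it in none of 19 mice, which allows a share of up to 17.6% of mice (exact binomial, 95%). Over the whole array 54.9% of the compounds reached the threshold in at least 1 mouse, so that 3 of 8 was no high share. Galα1-6Glcβ-sp3 (808) bound antibodies of 6 of 19 mice (31.6%, exact binomial 95% interval 12.6 to 56.6%), a number that 15.0% of all compounds reached or exceeded. Galα1-6Glcα-sp3 (806) was bound in 4 mice (21.1%, 6.05 to 45.6%) and Galα1-6Glcβ-sp4 (083) in 2 (10.5%, 1.30 to 33.1%).

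**Figure D1:**
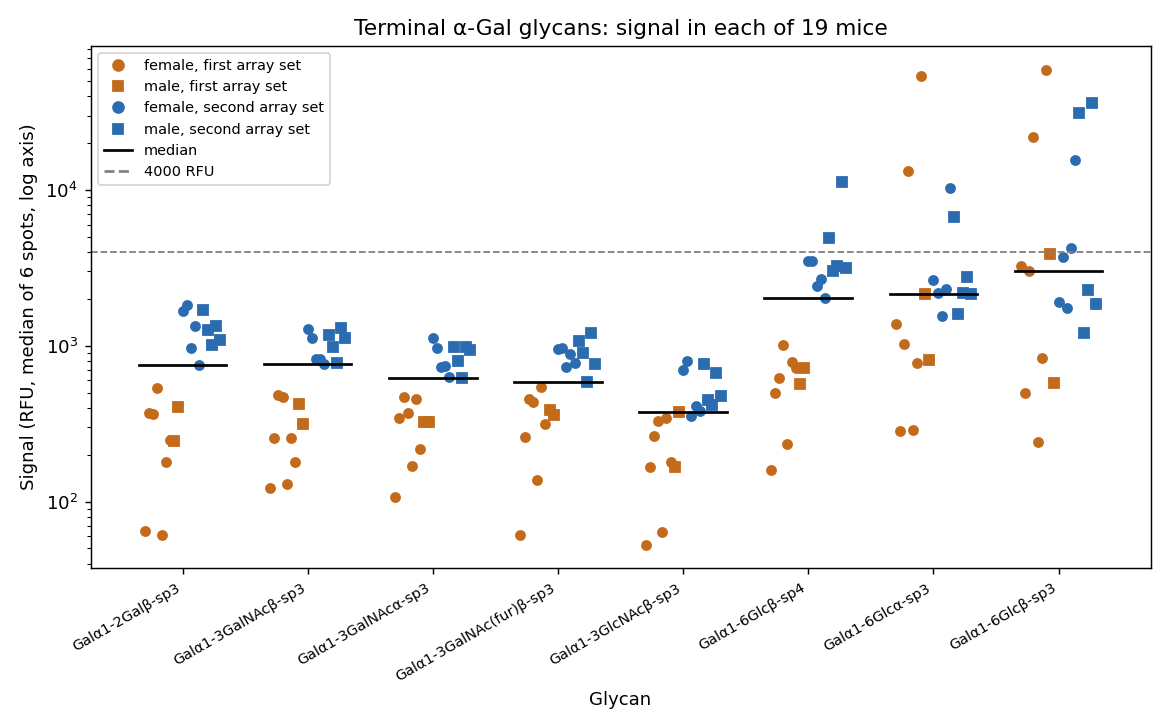
Signal of the 8 terminal α-Gal glycans in each of 19 mice (RFU on a log axis, 1 point per mouse, coloured by array set, circles for females and squares for males, black bar for the median, dashed line at 4000 RFU). Points above the dashed line occur only for the 3 melibioses, in 6 mice for Galα1-6Glcβ-sp3, 4 for Galα1-6Glcα-sp3 and 2 for Galα1-6Glcβ-sp4, and the points of the first set lie below those of the second for the other 5 glycans, apart from a small overlap for Galα1-3GlcNAcβ-sp3.

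The same mice did not bind the 3 melibioses alike. Galα1-6Glcβ-sp3 (808) ran from 241 RFU in female 5 through a median of 3024 RFU ± 1822 (MAD, n = 19 mice) to 59168 RFU in female 7. The 6 mice above the threshold were females 7, 4, 13 and 12 at 59168, 21962, 15528 and 4266 RFU, and males 5 and 2 at 36207 and 31100 RFU. Just below it lay male 1 at 3878 and female 10 at 3713 RFU. In female 7 it was the signal of rank 4 among the 406 glycans, with all 6 spots between 57284 and 62492 RFU, each with some saturated pixels, so that this value may be too low, and in male 3 its rank was 184. This glycan had the widest spread of the 8: the SD of log2 RFU within array sets was 2.23, rank 20 of 419 compounds.

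Galα1-6Glcα-sp3 (806) had a median of 2164 RFU ± 784 (MAD, n = 19) and ran from 285 RFU in female 2 to 54120 RFU in female 7. The other mice above 4000 RFU were females 4 and 13 at 13208 and 10242 RFU and male 2 at 6686 RFU. All 4 of them also bound Galα1-6Glcβ-sp3. The converse failed in 2 mice: male 5 had 36207 RFU on the β-anomer and 2760 RFU on the α-anomer, a 13.1-fold difference, and female 12 had 4266 and 2315 RFU. In male 5 the 6 spots of the α-anomer spanned 1875 to 3054 RFU and those of the β-anomer 32576 to 50995 RFU, so that they did not overlap. The buffer median of that array was 2044.5 RFU. The α-anomer was only 1.35 times this, so that the 13.1-fold difference is approximate.

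Galα1-6Glcβ-sp4 (083) had a median of 2024 RFU ± 1306 (MAD, n = 19), from 160 RFU in female 1 to 11278 RFU in male 5. Male 2 at 4947 RFU was the only other mouse above the threshold. Female 7, the strongest binder of the same disaccharide on sp3, had 718 RFU on sp4. Its sp4 spots ran from 204 to 2563 RFU, and the buffer median of that array was 424.5 RFU. The median of the sp3 form, saturated in part in all 6 spots, was 82.3 times that of the sp4 form. With sp4 spots that far apart and near the buffer, this ratio is only approximate. The ratio of sp3 to sp4 form was 21.8 in female 4, 20.3 in female 1, 7.67 in female 13, 6.80 in male 1, 6.29 in male 2, 4.89 in female 3 and 3.21 in male 5, and at most 1.59 in the other mice. The ratios of females 4 and 1 are approximate as well. Their sp4 signals were 1008 and 159.5 RFU, beside buffer medians of 606 and 93.5 RFU. In 7 of 19 mice the sp4 form was the brighter, with the lowest ratio of 0.40 in male 3. In males 3 and 7 the sp3 form, at 1203 and 580.5 RFU, lay below the buffer medians of 1290.5 and 644 RFU. It therefore had no level of its own there, and the ratio of male 3 is only approximate. In female 2 the sp3 and sp4 forms were about equal, at 495.5 and 500 RFU. The 2 mice that bound the sp4 form were among the 6 that bound the sp3 form (100% of 2 and 33.3% of 6), and 1 mouse, male 2, bound all 3 melibioses.

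**Figure D2:**
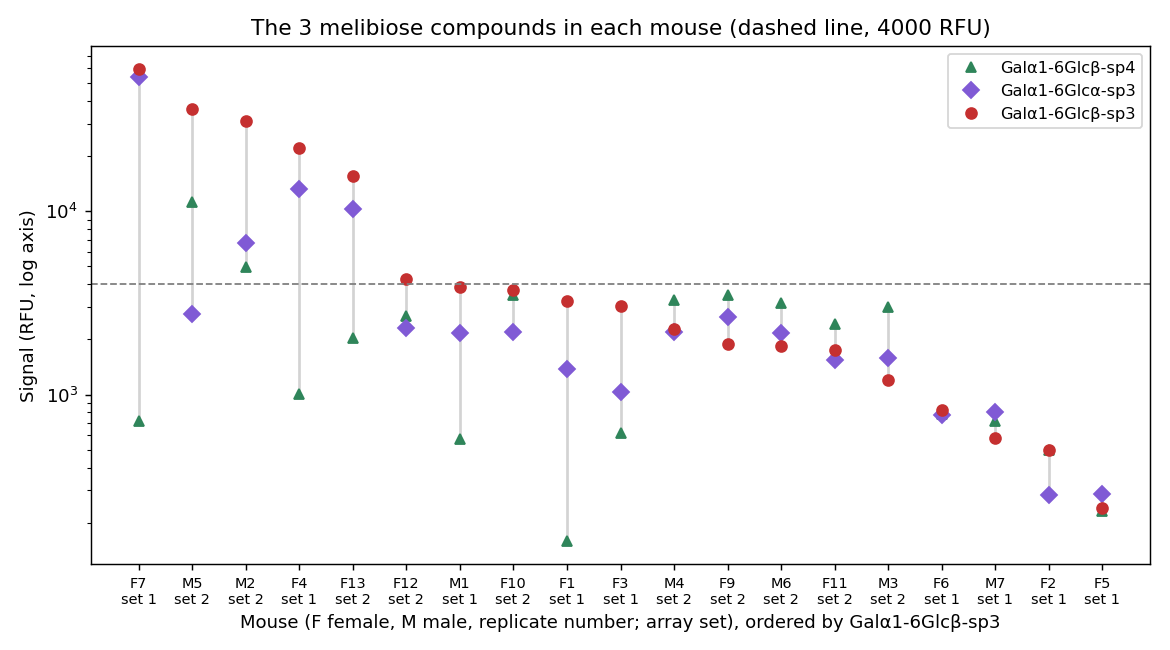
Signals of the 3 melibioses in each mouse (RFU on a log axis, mice ordered by Galα1-6Glcβ-sp3, F for females and M for males with their number, array set below, dashed line at 4000 RFU). In female 7 the sp3 compounds stood at 59168 and 54120 RFU and the sp4 compound at 718 RFU, whereas in male 5 the β-anomers on sp3 and sp4 reached 36207 and 11278 RFU and the α-anomer 2760 RFU.

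The sp4 compound followed the array sets. Its signals were 160 to 1008 RFU on the first set and 2024 to 11278 RFU on the second, which do not overlap, with medians of 1.82 and 3.46 times the median compound of the same array. The medians of Galα1-6Glcβ-sp3 were 3024 and 3000 RFU in the 2 sets, where it bound antibodies of 2 of 9 and 4 of 10 mice. Those of Galα1-6Glcα-sp3 were 1034 and 2256 RFU, with binding in 2 mice of each set. Relative to the median compound of the same array, Galα1-6Glcβ-sp3 was at 8.69 and 3.12 times in the first and second set. Galα1-6Glcα-sp3 was at 2.97 and 2.36 times.

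The other 5 glycans gave signals close to the buffer. Galα1-2Galβ-sp3 (075) ran from 61 to 1831 RFU with a median of 758 RFU ± 510 (MAD, n = 19), and Galα1-3GalNAcβ-sp3 (077) from 122 to 1300 RFU with a median of 763 RFU ± 355. The values of Galα1-3GalNAcα-sp3 (078) were 108 to 1116 RFU, median 624 RFU ± 298, and those of its furanose relative Galα1-3GalNAc(fur)β-sp3 (140) were 61 to 1212 RFU, median 584 RFU ± 270. Galα1-3GlcNAcβ-sp3 (080) was lowest, 53 to 798 RFU with a median of 374 RFU ± 110. Apart from Galα1-3GlcNAcβ-sp3, each of these had higher values on every array of the second set than on any of the first, as the array medians did, and their within-set SD of log2 RFU was 0.53 to 0.66.

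Each glycan was compared with the buffer spots of its own array by limma over all compounds. All 3 melibioses were above buffer, by 2.92 on the log2 scale for Galα1-6Glcβ-sp3 (95% interval 1.99 to 3.86, limma adjusted p = 6.4e-06, brighter than buffer in 17 of 19 mice), 2.29 for Galα1-6Glcα-sp3 (1.47 to 3.12, limma adjusted p = 2.4e-05, 19 of 19) and 1.66 for Galα1-6Glcβ-sp4 (1.18 to 2.13, limma adjusted p = 1.4e-06, 19 of 19). Galα1-3GlcNAcβ-sp3 was below it, by -0.44 (-0.80 to -0.07, limma adjusted p = 0.036), and the remaining 4 did not pass the test, with differences from 0.15 to 0.36. Over all compounds 42.5% were above buffer and 18.9% below. These calls rest on the median of the buffer spots: with means over spots, in which bright buffer spots count, 0 of the 8 were above buffer and 6 below, and with spots not found by the scanner software left out 4 of the 8 were below. Of 114 spots, 2 of 808, 6 of 806 and 12 of 083 carried that flag, against 16 to 29 of the other 5 glycans. The call on Galα1-3GlcNAcβ-sp3 was lost without any 1 of females 4, 7 and 11 and males 3, 4 and 5 (limma adjusted p 0.051 to 0.073) and in the first set of arrays alone (-0.24, limma adjusted p = 0.63), where that on Galα1-6Glcβ-sp4 was lost as well (1.12, limma adjusted p = 0.056). Galα1-2Galβ-sp3 was above buffer in the second set alone (0.65, limma adjusted p = 0.026).

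Among neighbours on the array, 1 of 7 Galα1-3Gal glycans without fucose branch, sulfate or sialic acid and 3 of 6 such Galα1-4 glycans reached 4000 RFU in at least 1 mouse, against 54.9% of all compounds. The highest single signals of these 2 families were 4174 and 7139 RFU. The highest single signal of a melibiose was 59168 RFU. Of galactose alone in α linkage, Galα-sp3 (002) had a median of 1600 RFU ± 1028 (MAD) and at most 3368 RFU, and Galα-sp7 (056) a median of 1086 RFU ± 708 and at most 2504 RFU. The negative control trehalose-ethanolamine (629) stayed between 55 and 914 RFU.

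Each glycan was set against compounds that differ from it in a named way, within each mouse. The amount of each compound on its spots was not measured, and the paper states that printed density and spacer length can affect activity. A difference therefore cannot be assigned to the named change alone. Of 28 pairs, 20 differed by 1 change, 4 melibiose pairs by 2 changes, and 4 by an added substituent. The 2 changes were among the outer sugar, its anomer and its linkage, where no melibiose had a partner with 1 such change. A two-sided exact sign-flip test over mice, adjusted over all 28 pairs, separated 16. With 19 mice its smallest possible p is 3.8e-06.

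**Figure D3:**
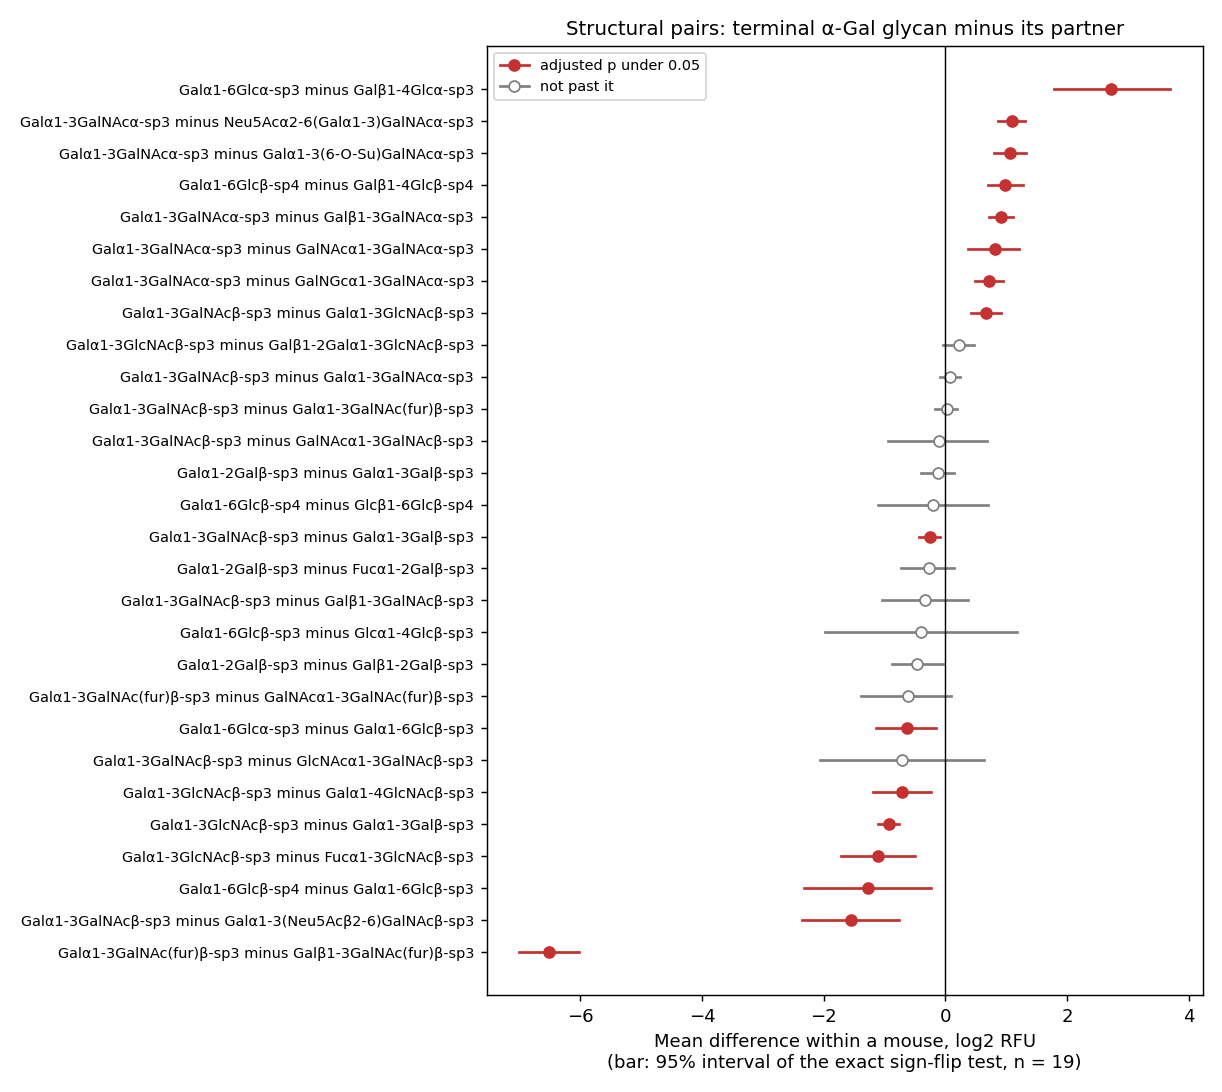
Mean difference in log2 RFU within a mouse between each terminal α-Gal glycan and its partner for the 28 pairs (points, with 95% intervals of the exact sign-flip test as bars, n = 19, filled red where the adjusted p is under 0.05). The pair at the bottom, Galα1-3GalNAc(fur)β-sp3 minus Galβ1-3GalNAc(fur)β-sp3, lies at -6.51 as measured, where 88 of 114 spots of the second glycan had saturated pixels, so that its bar is no interval of the true difference. The pair at the top, Galα1-6Glcα-sp3 minus Galβ1-4Glcα-sp3, lies at 2.72, or 2.14 with signals below the buffer raised to it.

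The largest difference followed the anomer of the terminal galactose on the furanose core. Galβ1-3GalNAc(fur)β-sp3 (802) was bound in 19 of 19 mice, from 13338 to 63500 RFU with a median of 60836 RFU, while Galα1-3GalNAc(fur)β-sp3 (140) never exceeded 1212 RFU. The β-anomer had saturated pixels in 88 of 114 spots, spread over 17 mice, and the α-anomer exceeded the buffer in 11 of 19 mice, so that only a bound can be given. With signals below the buffer raised to it the α-anomer was at least 80.0-fold lower, and the α-anomer was the dimmer in 19 of 19 mice (exact sign-flip test on the values as measured, adjusted p = 1.5e-05). Another glycan of this core, GalNAcα1-3GalNAc(fur)β-sp3 (801), had a median of 624 RFU, with binding in 2 mice, and its difference to the Galα form did not pass the test (-0.62, -1.39 to 0.09, exact sign-flip test, adjusted p = 0.15), though it did with signals below buffer raised to it (-0.73, exact sign-flip test, adjusted p = 0.026) and with the mean of the spots (-1.22, exact sign-flip test, adjusted p = 0.0090). In the mean, bright outlying spots of 801 count. In females 9 and 10 and male 6 its brightest spots had 39488, 10937 and 10739 RFU, beside medians of 629.5, 772.5 and 574 RFU. Their part in that result was not tested.

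The pyranose forms of the same disaccharide gave smaller differences, near buffer level. Galα1-3GalNAcα-sp3 (078) was higher than the Thomsen-Friedenreich disaccharide Galβ1-3GalNAcα-sp3 (089, median 272 RFU) in 19 of 19 mice, by 0.91 (0.71 to 1.11, exact sign-flip test, adjusted p = 1.5e-05). It was also higher than core 5, GalNAcα1-3GalNAcα-sp3 (103), by 0.81 (0.37 to 1.21, 18 of 19 mice, exact sign-flip test, adjusted p = 0.0044), and than its N-glycolyl form GalNGcα1-3GalNAcα-sp3 (810) by 0.72 (0.49 to 0.96, 18 of 19 mice). Those partners exceeded the buffer in 3, 4 and 6 of 19 mice. Of their 114 spots each, 30, 35 and 19 were not found, against 17 for 078. With every signal below the buffer raised to it, the differences to 089 and 810 were 0.34 and 0.29 and still passed the test, and that to core 5 was 0.18 and did not (exact sign-flip test, adjusted p = 0.44). The latter did not pass in the second set of arrays alone either (0.60, exact sign-flip test, adjusted p = 0.19). On the β-linked GalNAc the anomer of galactose made no difference past the test: Galα1-3GalNAcβ-sp3 (077) minus Galβ1-3GalNAcβ-sp3 (088) was -0.34, with an interval from -1.05 to 0.37. The latter reached 4000 RFU in 2 mice and 9952 RFU at most.

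On the α-linked GalNAc core, a 6-O-sulfate or an α2-6 sialic acid went with lower signals. On the β-linked GalNAc core, a β2-6 sialic acid went with a higher signal. The sulfated form Galα1-3(6-O-Su)GalNAcα-sp3 (851) and the sialylated form Neu5Acα2-6(Galα1-3)GalNAcα-sp3 (290) were dimmer than the unsubstituted 078 in 19 of 19 mice, with differences of 1.06 (0.81 to 1.32) and 1.09 (0.87 to 1.31) on the log2 scale (exact sign-flip test, adjusted p = 1.5e-05 for each). Both exceeded the buffer in only 3 mice, and with signals below the buffer raised to it each difference was 0.37 (exact sign-flip test, adjusted p = 0.0015 for each). Of their 114 spots each, 36 and 40 were not found, against 17 for 078. Galα1-3(Neu5Acβ2-6)GalNAcβ-sp3 (340), with sialic acid in the β linkage, was brighter than the unsubstituted 077 in 17 of 19 mice. The unsubstituted glycan was lower by 1.55 (0.76 to 2.35, exact sign-flip test, adjusted p = 0.00074), and the sialylated form bound antibodies of 3 mice, up to 19114 RFU in female 9. Within the second set of arrays this difference was -0.99 and did not pass the test (exact sign-flip test, adjusted p = 0.072). The 2 cores were not compared with each other for this step, and they carried different groups, so that core and group cannot be told apart.

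Galα1-3 disaccharides with different inner sugars differed in signal by 1.20- to 1.90-fold on average, and by 1.13- to 1.45-fold with signals below the buffer raised to it. Galα1-3GlcNAcβ-sp3 (080) was lower than the xenoantigen disaccharide Galα1-3Galβ-sp3 (076, median 718 RFU ± 374) in 19 of 19 mice, by -0.93 (-1.10 to -0.75, exact sign-flip test, adjusted p = 1.5e-05), and lower than Galα1-3GalNAcβ-sp3, which exceeded it by 0.67 (0.43 to 0.91, 16 of 19 mice, exact sign-flip test, adjusted p = 0.00031). Of 114 spots each, 29 of Galα1-3GlcNAcβ-sp3 were not found, against 18 of 076 and 19 of 077. Galα1-3GlcNAcβ-sp3 exceeded the buffer in 4 of 19 mice, and with signals raised to the buffer these differences were -0.53 and 0.35 (exact sign-flip test, adjusted p = 0.00043 and 0.0057). The second of them did not pass in the first set of arrays alone (0.37, exact sign-flip test, adjusted p = 0.14). Galα1-3GalNAcβ-sp3 was in turn slightly below Galα1-3Galβ-sp3, by -0.26 (-0.43 to -0.09, exact sign-flip test, adjusted p = 0.0064), which neither array set passed alone and which fell to -0.18 (adjusted p = 0.59) with the mean of the spots. None of the 3 exceeded 1620 RFU in any mouse. The ring form and the anomer of the inner GalNAc made no difference past the test: Galα1-3GalNAcβ-sp3 minus the furanose was 0.02 (-0.17 to 0.20) and minus the α-linked form 0.08 (-0.08 to 0.24). In the second set alone both passed it, at 0.20 and 0.25 (exact sign-flip test, adjusted p = 0.023 and 0.0050).

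Partners with another linkage or outer sugar gave the following. Galα1-3GlcNAcβ-sp3 was lower than Galα1-4GlcNAcβ-sp3 (081), by -0.71 (-1.18 to -0.24, exact sign-flip test, adjusted p = 0.0044), and lower than Fucα1-3GlcNAcβ-sp3 (072), by -1.10 (-1.71 to -0.50, exact sign-flip test, adjusted p = 0.00045). Both partners were bound in some mice, 1 and 2 of 19, and neither difference passed the test in the first set of arrays alone. With signals below the buffer raised to it they were -0.39 and -0.81 (exact sign-flip test, adjusted p = 0.026 and 0.0055). The difference of Galα1-3GlcNAcβ-sp3 to the form with Galβ1-2 on its galactose (228) was less than the test could separate (0.22, -0.04 to 0.47), except without female 2 (0.29, exact sign-flip test, adjusted p = 0.015). For Galα1-2Galβ-sp3 (075) none of 3 differences passed: -0.13 to Galα1-3Galβ-sp3 (-0.41 to 0.15), -0.28 to the H disaccharide Fucα1-2Galβ-sp3 (071, -0.73 to 0.14), and -0.46 to its β-anomer Galβ1-2Galβ-sp3 (084, -0.88 to -0.04, exact sign-flip test, adjusted p = 0.056). The last passed without female 2, 4 or 12 or male 7 (exact sign-flip test, adjusted p 0.0057 to 0.046), in the second set alone (-0.77, exact sign-flip test, adjusted p = 0.023) and with signals below buffer raised to it (-0.48, exact sign-flip test, adjusted p = 0.0057). It also passed with 500 RFU added before log2, quantile normalization or both identical arrays kept (exact sign-flip test, adjusted p = 0.025, 0.041 and 0.042) and by limma over the pairs (limma adjusted p = 0.048). For Galα1-3GalNAcβ-sp3, the differences to its partners with α-GalNAc (101) or α-GlcNAc (142) in place of galactose were -0.11 (-0.95 to 0.68) and -0.70 (-2.05 to 0.63), with binding to the partner in 1 and 5 mice and up to 36426 RFU for the α-GlcNAc form.

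The melibioses were compared in the same way. The α-anomer at glucose (806) was lower than the β-anomer on the same spacer (808), by -0.63 (-1.13 to -0.16, exact sign-flip test, adjusted p = 0.015), that is 1.55-fold, with the β-anomer brighter in 14 of 19 mice. Leaving out any 1 mouse gave -0.69 to -0.46 and kept the adjusted p between 0.0077 and 0.029. Within the array sets it was -0.52 and -0.73 and did not pass the test (exact sign-flip test, adjusted p = 0.10 and 0.15, n = 9 and 10). The sp4 form (083) was lower than the sp3 form, by -1.27 (-2.32 to -0.23, exact sign-flip test, adjusted p = 0.031), that is 2.41-fold, but the sp3 form was the brighter in only 12 of 19 mice. This call was lost without any 1 of females 1, 3, 4, 7 and 13 and males 1 and 2 (exact sign-flip test, adjusted p 0.053 to 0.061), and the difference was -2.22 in the first set and -0.41 in the second (adjusted p = 0.084 and 0.47).

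Lactose partners were compared with Galα1-6Glcα-sp3 and Galα1-6Glcβ-sp4, and both melibioses were higher. Galα1-6Glcβ-sp3 was not compared with a lactose. Galα1-6Glcα-sp3 exceeded Galβ1-4Glcα-sp3 (139, median 406 RFU ± 193), the lactose of the same inner anomer and spacer, in 19 of 19 mice, by 2.72 (1.79 to 3.69, exact sign-flip test, adjusted p = 1.5e-05). Galα1-6Glcβ-sp4 exceeded lactose Galβ1-4Glcβ-sp4 (093, median 1054 RFU ± 656) in 19 of 19 mice, by 0.99 (0.70 to 1.28, exact sign-flip test, adjusted p = 1.5e-05). The 2 lactoses exceeded the buffer in 5 and 15 of 19 mice. With signals below the buffer raised to it the differences were 2.14 and 0.86 (exact sign-flip test, adjusted p = 3.6e-05 for each). These pairs differ both in the anomer of galactose and in the linkage position. Neither lactose reached 4000 RFU in any mouse, the highest being 817 and 2898 RFU.

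The glucose-terminated partners did not differ from the melibioses past the test. Galα1-6Glcβ-sp3 minus maltose Glcα1-4Glcβ-sp3 (110) was -0.40, with a wide interval from -1.97 to 1.18 (exact sign-flip test, adjusted p = 0.68). Maltose was bound in 9 mice, up to 49640 RFU in female 9, which had 1897 RFU on the melibiose. In female 7 maltose gave 815 RFU and the melibiose 59168 RFU. Galα1-6Glcβ-sp4 minus gentiobiose Glcβ1-6Glcβ-sp4 (112) was -0.19 (-1.11 to 0.71, exact sign-flip test, adjusted p = 0.71), and gentiobiose was bound in 5 mice, up to 60586 RFU in male 2, where all 6 spots had saturated pixels.

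Signals of the 2 melibioses on sp3 went together from mouse to mouse, which was examined within the array sets over 16 relations. Galα1-6Glcβ-sp3 and Galα1-6Glcα-sp3 had r = 0.97 (exact permutation test, p = 1.1e-05, adjusted p = 0.00018) and rho = 0.97 (exact permutation test, p = 0.00017, adjusted p = 0.0026) over the 9 mice of the first set. Without the 2 mice farthest from the median r was 0.94. Over the 10 mice of the second set r was 0.73 (permutation test, p = 0.020, adjusted p = 0.16) and rho 0.87 (permutation test, p = 0.0025, adjusted p = 0.020), and r was 0.90 without the 2 farthest mice.

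No other relation passed the adjusted threshold. Galα1-6Glcβ-sp3 and its sp4 form had r = 0.37 (exact permutation test, p = 0.33, adjusted p = 0.66) and rho = 0.35 (p = 0.36, adjusted p = 0.68) in the first set. In the second set r was 0.58 (permutation test, p = 0.063, adjusted p = 0.34) and rho 0.44 (p = 0.20, adjusted p = 0.68), and r turned to -0.62 without the 2 farthest mice, so that it rests on those. Galα1-6Glcα-sp3 and the sp4 form had r = 0.43 and -0.01 in the first and second set (exact and permutation test, p = 0.23 and 0.98, adjusted p = 0.66 and 0.98), rho = 0.32 and 0.30 (adjusted p = 0.68 in each), and r = 0.11 and 0.62 without the 2 farthest mice. For Galα1-6Glcβ-sp3 with maltose, gentiobiose, isomaltotriose (241), Galβ1-6Galβ-sp4 (100) and Galα-sp3 (002), r lay between -0.33 and 0.54 over both sets (exact and permutation tests, adjusted p 0.54 to 0.94) and rho between -0.47 and 0.47 (exact and permutation tests, adjusted p 0.68 to 0.81). Without the 2 farthest mice r was -0.26 to 0.65.

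**Figure D4:**
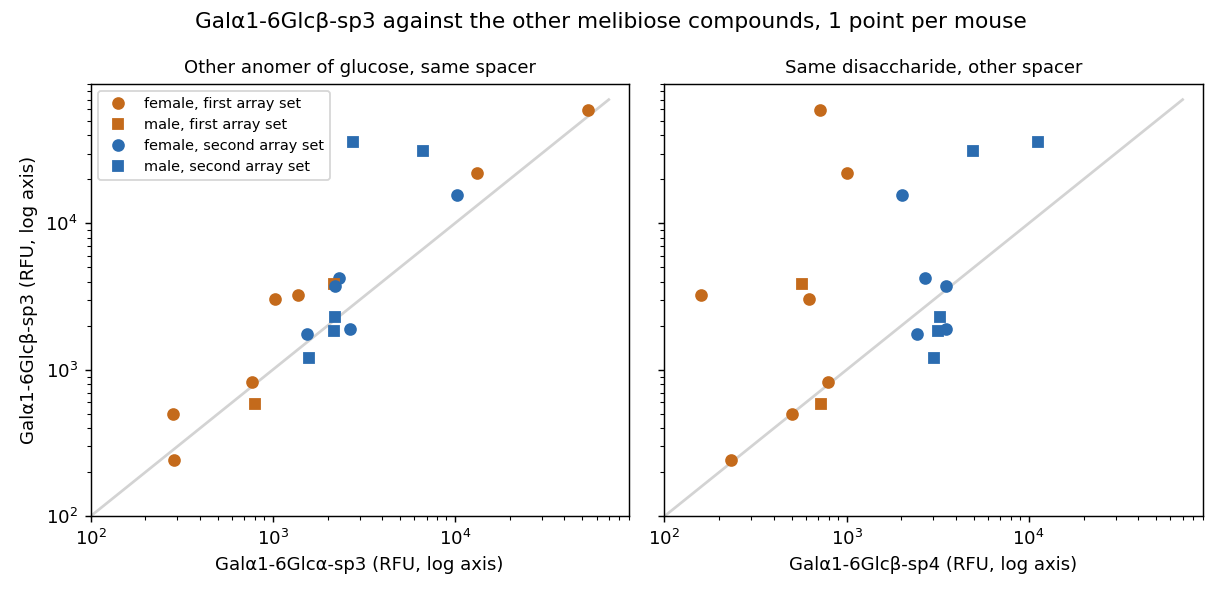
Galα1-6Glcβ-sp3 against Galα1-6Glcα-sp3 (left) and against Galα1-6Glcβ-sp4 (right), both axes in RFU on a log scale, 1 point per mouse, coloured by array set, circles for females and squares for males, with the line of equal signal. On the left the points follow the line with r = 0.97 and 0.73 in the first and second set, apart from males 5 and 2 above it, and on the right the 2 sets lie apart along the horizontal axis.

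As a description, the compounds whose log2 signals, centred within the array sets, went most closely with Galα1-6Glcβ-sp3 over 19 mice were ranked by Pearson's r. Galα1-6Glcα-sp3 came first with r = 0.88. After a wide gap followed Galα1-4GlcNAcβ-sp3 (081) at 0.52, a lactosamine trimer (498) at 0.51, a peptide (907) at 0.51 and globoside Gb4 (389) at 0.50. Among these 4 only 081 reached 4000 RFU, in 1 mouse. Galα1-6Glcβ-sp4 was at rank 9 with 0.45, and the other 5 α-Gal glycans had r of 0.01 to 0.30. Points share the array they come from.

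No difference between the sexes passed a test. None of the 8 glycans did so by limma (smallest adjusted p = 0.33), against 1.67% of all compounds, and 0 had an unadjusted p under 0.05 by limma or by the exact permutation test. Galα1-6Glcβ-sp3 was bound in 4 of 12 females (median 3131 RFU ± 1839) and 2 of 7 males (2286 RFU ± 1591), with a female minus male difference of -0.29 in mean log2 RFU (95% interval -2.31 to 1.74). Galα1-6Glcα-sp3 was bound in 3 females and 1 male, with a difference of 0.01 (-1.75 to 1.78). The sp4 form was bound in 0 females and 2 males, with medians of 898 and 3164 RFU and a difference of -1.35 (-2.87 to 0.18, exact permutation test, p = 0.076). With the array set as a term this became -0.57. The other 5 differed by -0.89 to -0.59, beside a median of -0.75 over all compounds. None of the 28 pair differences differed between the sexes (exact permutation test, smallest adjusted p = 0.81, 0 with an unadjusted p under 0.05).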

How the data were processed

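Per the file headers, the authors obtained spot values in ScanArray Express 4.00. For a spot they deposited the mean pixel intensity (linear), the percent of saturated pixels and a flag. Galα1-6Glcβ-sp3 and Galα1-6Glcα-sp3 had saturated pixels in 6 and 3 of 114 spots. Structures came from the authors' deposited series table, whose summary columns over animals were not used. Values were the median of 6 spots, background left in, unscaled between arrays, set to at least 100 RFU, then log2. Buffer and sex were tested with limma 3.58.1 (R 4.3.3, trended prior) over all 419 compounds, pairs with exact sign-flip tests, and relations with exact tests for 9 mice or 100000 permutations for 10, with Benjamini-Hochberg adjustment. The intervals of pair differences hold the shifts not rejected. The steps were tested on simulated data. The sets were told apart at the widest gap in the ratio named above, from the values. Members, pairs and relations were chosen by structure with earlier results of these data known. All members and partners were named, with the 5 compounds most like Galα1-6Glcβ-sp3. Alternatives covered spot summary, background, scaling, the identical arrays, single mice and array sets. Scripts ran in Python 3.11.15 with scipy 1.17.1 for binomial intervals, numpy 2.4.6, and pandas 2.3.3.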

Additional observations from a re-analysis of the deposited data

Results flagged for a closer look

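Dixon's ratio, the gap of the farthest value to its neighbour over the range, was computed for the 7 males for each of the 8 glycans, and 2 passed the critical value of 0.568, where chance flags about 1 in 20 groups if values are normally distributed. Galα1-6Glcβ-sp4 (083) gave 0.591, with male 5 at 11278 RFU and the next male at 4947 RFU. Galα1-6Glcα-sp3 (806) gave 0.668, with male 2 at 6686 RFU and the next, male 5, at 2760 RFU. Both ratios are of RFU as measured over both array sets. On the log2 scale they were 0.28 and 0.42, under the critical value.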

How the results depend on the processing

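The number of pairs past the test, 16, was 15 to 18 when 1 mouse was left out and 10 in the first set of arrays alone, where there were 9 mice. The number of glycans above buffer, 3, was 3 without any 1 mouse and 0 with the mean of the 6 spots. The number below buffer, 1, was 0 to 1 without 1 mouse, 6 with the mean of the spots, 4 without spots not found, 0 without both identical arrays and 0 in the first set alone. With the mean of the spots the differences to buffer turned to -2.14 for 075, -2.11 for 077, -2.26 for 078, -0.90 for 083, -2.24 for 140 and -0.31 for 806, and without spots not found to -0.29 for 075, -0.69 for 077, -0.78 for 078 and -0.64 for 140. The causes were not tested. The number of glycans that differ between sexes, 0, was 0 in every alternative run, including each mouse left out and, chosen after seeing the data, spots not found left out, and the number of pairs that differ between sexes was 0 under the 6 alternatives added for it after seeing the data.

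Pair differences that turned sign had not passed the test. Galα1-3GalNAcβ-sp3 (077) minus 101 became 0.024 with the mean of the spots, 0.0035 with quantile normalization and 0.18 with neither identical array, and ran from -0.22 to 0.18 without 1 mouse. The same glycan minus 140 became -0.0044 with background subtracted, -0.021 with both identical arrays, -0.045 without spots not found and -0.18 in the first set, and ran from -0.0084 to 0.082 without 1 mouse. In the first set 077 minus 078 was -0.12 and 083 minus 112 was 0.015, and in the second set 077 minus 142 was 0.77. The difference 075 minus 076 was 0.10 without spots not found and 0.20 in the second set, and 080 minus 228 was -0.13 without spots not found. The difference 083 minus 808 was -0.98 without both identical arrays and did not pass (exact sign-flip test, adjusted p = 0.061).

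Female minus male differences turned, with none past the test, to 0.088 for 077, 0.40 for 078, 0.050 for 080, 0.28 for 140 and 0.42 for 808 with quantile normalization, to 0.039 for 808 with both identical arrays and to -0.40 for 806 with neither. Without 1 mouse they ran from -0.40 to 0.28 for 806 and from -0.74 to 0.25 for 808. With the array median subtracted, r turned to 0.0098 for 806 and 083 in the second set and to -0.096 and -0.032 for 808 and 002 in the first and second. At thresholds of 2000 and 8000 RFU, 808 was bound in 11 and 5 mice, 806 in 11 and 3, and 083 in 10 and 1. Females and males could not be compared as pairs, because the replicate numbers follow the order of the samples and pair no mice.

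The number of arrays limits the precision, IgM and IgG cannot be told apart, and signals below the buffer have no level of their own. The spread between mice includes that between single arrays, since each serum was tested once.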
